A study of Mus musculus with 16 samples.

Results

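Described here are 39 genes that act in mitosis, measured in 6 cell types of the mouse testis at postnatal day 2. The genes were taken from a fixed list of mitotic regulators and structural proteins, and all 39 were among the 30451 genes of the count table. The study compared wild-type testes with testes of germ cell *Ddx5* knockout mice, made by crossing mice with a floxed *Ddx5* gene to mice that carry *Mvh*-Cre, a Cre recombinase under the promoter of the germ cell gene *Mvh* (also called *Ddx4*). Knockout mice were bred from heterozygous males and females with 2 floxed copies of the gene. The promoter directs Cre to germ cells, and the somatic cells were checked here by their *Ddx5* and CRE RNA. GFP, from the *Oct4*-GFP reporter the study used to mark germ cells, had 450 and 22 UMIs in the germ cells of wild type and of the other library. Whole testes were dissociated and sequenced with droplet-based 3′ chemistry, and the table gives the number of unique molecular identifiers (UMIs, 1 per captured transcript) of each gene in each cell. The labels list 8 samples per genotype, but the barcodes of the table carry only 2 suffixes, read here as the genotypes, so each genotype counts as 1 library and no test between genotypes could be run. The sample titles also name lanes. The genotypes share a lane and each has another of its own, and the barcodes name no sample, so lanes could not be compared. All intervals below are 95% intervals for counting error alone.

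Mitosis is the division of duplicated chromosomes between daughter cells. Entry is driven by cyclin B bound to the kinase CDK1, the spindle attaches to chromosomes at kinetochores, and the spindle checkpoint holds back the anaphase-promoting complex (APC/C) until every kinetochore is attached. The genes for these proteins are switched on together late in the cell cycle. In the newborn testis Sertoli cells, the supporting cells of the tubules, still multiply, and gonocytes, the germ cells that precede spermatogonia, leave a long arrest and resume division. Fetal-type Leydig cells, which make androgens, divide little.

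Many genes of late cell cycle expression carry a short promoter element, the cell cycle genes homology region (CHR, core TTTGAA), often with upstream CCAAT boxes. RefSeq promoters of 300 bases (250 before and 50 after the transcript start, GRCm38.p6) were at hand for 33 of the 39 genes. TTTGAA was found on either strand in 25 of the 33 (75.8%), against 20.2% of the promoters of 27025 genes. CCAAT was found in 26 of the 33 (78.8%), against 41.1% of all promoters, and both motifs in 21 (63.6%) against 7.97%. A match is a run of letters and not a measured binding site. The promoters below are those of the 4 genes with the highest level in wild-type Sertoli cells among members whose promoter holds TTTGAA. They are written 5′ to 3′ on the gene's strand, with TTTGAA and CCAAT, or their reverse complements, in capitals. They lie at chr2:164769679-164769978 (*Ube2c*, plus strand), chr11:99024140-99024439 (*Top2a*, minus strand), chr1:189688037-189688336 (*Cenpf*, minus strand) and chr10:69352863-69353162 (*Cdk1*, minus strand).
Ube2c: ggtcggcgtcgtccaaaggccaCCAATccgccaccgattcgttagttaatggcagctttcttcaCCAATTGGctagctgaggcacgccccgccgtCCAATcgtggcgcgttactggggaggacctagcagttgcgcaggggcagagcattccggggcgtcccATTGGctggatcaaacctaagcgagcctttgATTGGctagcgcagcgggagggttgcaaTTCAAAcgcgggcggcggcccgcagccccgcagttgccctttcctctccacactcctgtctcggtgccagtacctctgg
Top2a: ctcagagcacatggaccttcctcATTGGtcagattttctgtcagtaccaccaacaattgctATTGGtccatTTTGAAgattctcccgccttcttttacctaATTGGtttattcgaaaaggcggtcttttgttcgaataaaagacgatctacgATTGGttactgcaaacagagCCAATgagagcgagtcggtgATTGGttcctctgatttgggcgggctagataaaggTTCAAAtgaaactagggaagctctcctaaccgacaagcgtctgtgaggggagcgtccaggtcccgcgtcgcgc
Cenpf: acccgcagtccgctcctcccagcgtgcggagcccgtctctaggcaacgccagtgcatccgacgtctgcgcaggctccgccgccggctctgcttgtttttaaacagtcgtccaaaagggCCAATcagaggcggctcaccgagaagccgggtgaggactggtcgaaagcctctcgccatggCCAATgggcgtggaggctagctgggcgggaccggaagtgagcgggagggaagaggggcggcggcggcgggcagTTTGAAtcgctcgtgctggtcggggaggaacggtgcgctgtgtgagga
Cdk1: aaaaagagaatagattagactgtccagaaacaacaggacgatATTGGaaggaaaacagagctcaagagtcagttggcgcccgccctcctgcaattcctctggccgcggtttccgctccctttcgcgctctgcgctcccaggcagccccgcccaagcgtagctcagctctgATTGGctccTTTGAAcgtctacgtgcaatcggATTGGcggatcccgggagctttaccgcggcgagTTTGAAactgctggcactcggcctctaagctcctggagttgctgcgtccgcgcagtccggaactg
A copy of TTTGAA lay within 30 bases of the transcript start in all 4 promoters. The copy nearest to the start began 29 bases before it in *Ube2c*, 23 in *Top2a* and 15 in *Cdk1*, and 3 bases after it in *Cenpf*. A further copy began 179 bases before the start in *Top2a* and 71 in *Cdk1*. The promoter of *Birc5*, the gene of the passenger protein survivin, was among those with neither motif in this window.

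After cells with under 2000 genes or over 10% mitochondrial UMIs were removed, 6329 wild-type cells remained, and the library labelled *Ddx5* knockout had 4950, with median depths of 11170 and 11668.5 UMIs. Types were called from marker genes: Sertoli cells by *Amh*, Leydig cells by steroidogenic enzymes, peritubular myoid cells by *Acta2* and *Myh11*, other stroma by *Pdgfra*, macrophages by *C1q* genes and germ cells by at least 3 of *Dazl*, *Ddx4*, *Mael* and *Stk31*. This gave 2208 and 1620 Sertoli, 721 and 500 myoid, 2857 and 2491 stromal, 174 and 142 Leydig, 30 and 23 macrophage and 125 and 12 germ cells, wild type first. *Ddx5* itself was at 1152 CPM (counts per 1000000 UMIs of the type, 95% interval 1120 to 1185) in wild-type germ cells and at 1736 (1618 to 1860) in germ cells of the other library, so that the name of the library stands for its label only. It is called the knockout-labelled library below. In somatic cells *Ddx5* was lower in the knockout-labelled library, at 931 and 884.5 CPM in Sertoli cells, 687 and 605.5 in myoid cells, 609.6 and 550.3 in stroma and 705 and 617 in Leydig cells, with intervals apart in these 4 types, and at 711 and 672 in macrophages, where they overlapped. Among the 6 types CRE transcripts were found only in the knockout-labelled library, 20 UMIs in 9 of its 12 germ cells. Each type held UMIs of every marker fixed for it, and the 6 Sertoli markers summed to 6252 and 5515 CPM in Sertoli cells against 94.5 and 79.2 in stroma. The libraries shared 12 cell barcodes.

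Most UMIs of the mitotic genes were held by a minority of cells, although 4.99% and 5.07% of cells had no member UMI at all. To compare cells of unequal depth, each cell was thinned at random to 5000 UMIs, and a cell with at least 20 UMIs from the 39 genes is called mitotic-high here. In wild type 1481 of 6232 cells (23.8%) were mitotic-high, and in the knockout-labelled library 1137 of 4882 (23.3%). These cells held 89.5% and 90.8% of all member UMIs. In Sertoli cells of wild type the median cell had 5 member UMIs of 5000, while the median mitotic-high cell had 61. In stroma these medians were 2 and 58. Few somatic cells lay near the limit of 20: between 15 and 24 member UMIs were found in 4.93% of wild-type Sertoli cells and in 2.79% of wild-type stromal cells. The limit did not fall in a gap of the distribution. In wild type the share was 40.5% at a limit of 10 and 26.2% at 40 in Sertoli cells, and 19.5% and 11.6% in stroma. Mitotic-high cells were also deeper than other cells of their type before thinning, by 1.47 times in Sertoli cells and by 1.53 times in stroma of wild type.

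**Figure D1:**
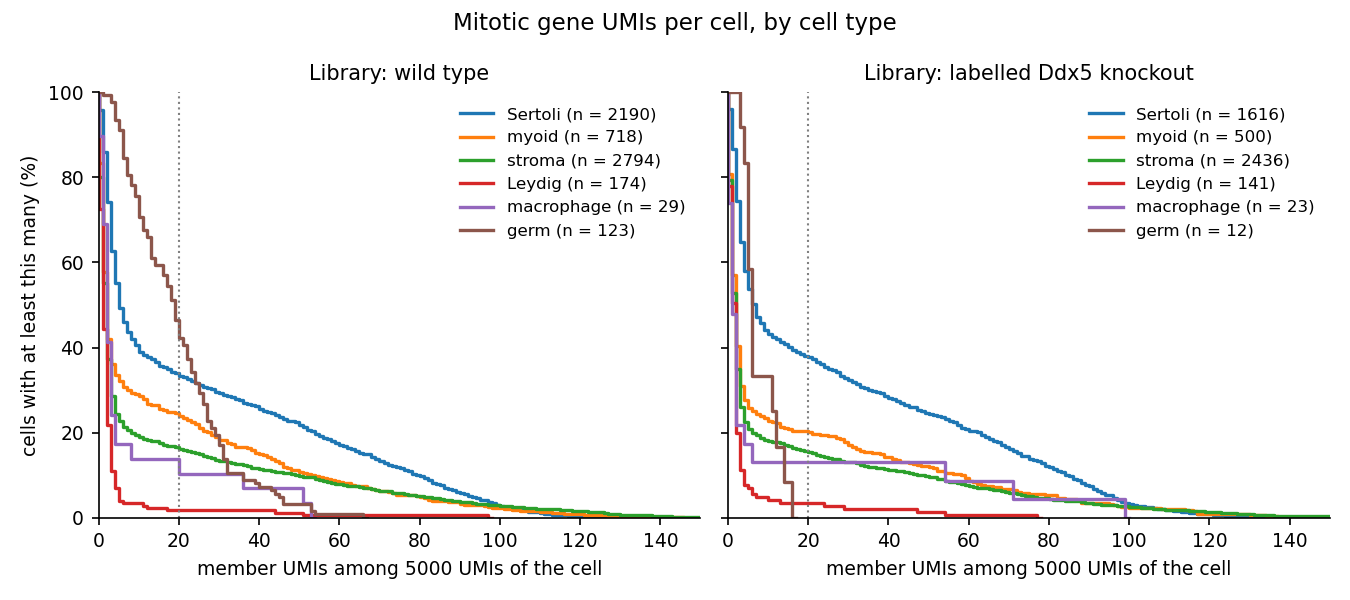
Share of cells (vertical axis, %) with at least a given number of member UMIs among 5000 UMIs of the cell (horizontal axis), with 1 line per cell type and 1 panel per library, and the limit of 20 as a dotted line. In Sertoli, myoid and stromal cells the lines fall steeply and then run in a long tail, while the wild-type germ cell line declines through the limit without a flat stretch.

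The share of mitotic-high cells differed between the somatic types in the same order in both libraries. It was highest in Sertoli cells, at 33.9% (95% exact binomial interval 31.9 to 36.0) in wild type and 37.995% (35.6 to 40.4) in the knockout-labelled library. Myoid cells had 24.5% (21.4 to 27.8) and 20.4% (17.0 to 24.2), and stroma 16.6% (15.3 to 18.1) and 15.7% (14.3 to 17.2). Relative to Sertoli cells the share in stroma was 0.491 (0.436 to 0.552) in wild type and 0.414 (0.363 to 0.471) in the other library. Intervals of the 3 types did not overlap in wild type, and in the knockout-labelled library those of myoid cells and stroma overlapped. Of the myoid cells only 54 of 721 and 25 of 500 met no second gate, and the rest also met the *Pdgfra* gate of stroma. Among those that met the myoid gate alone the share was 18.9% and 8.0%, so that in the knockout-labelled library the order of myoid cells and stroma turned with the gate.

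Of the somatic types Leydig cells had the lowest share over all cells. Only 3 of 174 wild-type Leydig cells were mitotic-high (1.72%, 0.357 to 4.96), and 5 of 141 in the other library (3.55%, 1.16 to 8.08). All 8 of these cells met the gate of a second type as well, and 2 of the 3 and 4 of the 5 were called doublets by Scrublet. Among Leydig cells that met no second gate none was mitotic-high. In the 40 and 29 Leydig cells with at most 5% mitochondrial UMIs, the share was 5.0% and 14.3% and the summed level of the members 1810 and 2169 CPM. In the knockout-labelled library both values then lay above those of its 23 macrophages (13.0% and 2095 CPM), so that the lowest place of Leydig cells turned there. In macrophages 4 of 29 and 3 of 23 cells were mitotic-high, and 5 of these 7 also met a second gate.

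In wild-type germ cells 57 of 123 were mitotic-high (46.3%, 37.3 to 55.6). None of the 12 germ cells of the knockout-labelled library was, and a count of 0 among 12 allows a share of up to 25% by 3 counts of the total and 26.5% by the exact interval. The 12 cells had between 3 and 16 member UMIs of 5000, with a median of 6, and wild-type germ cells had between 1 and 66, with a median of 19. The ranges overlapped. Germ cells formed no separate high class: 27.6% of wild-type germ cells lay between 15 and 24 member UMIs, only 8.13% reached 40, and the median of their mitotic-high cells was 27. Of the 125 wild-type germ cells, 39 also met the *Amh* gate of Sertoli cells, and the summed level of 6 Sertoli markers was 998 CPM in wild-type germ cells and 64.8 CPM in the 12 cells of the other library. Without cells that met a second gate the counts were 35 of 66 (53.0%, 40.3 to 65.4) and 0 of 8.

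**Figure D2:**
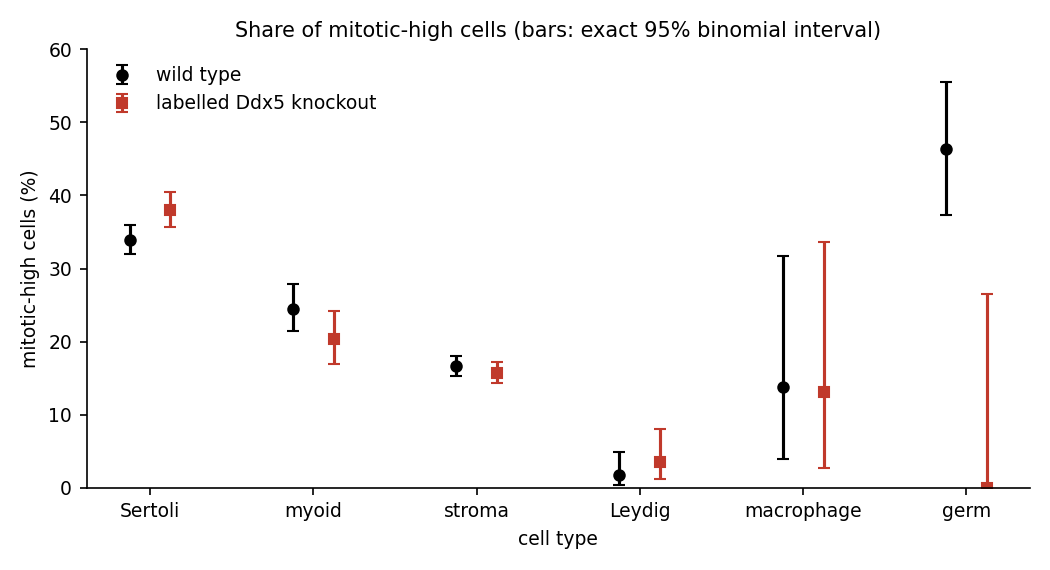
Share of mitotic-high cells (%) by cell type, with wild type as black circles and the knockout-labelled library as red squares, and exact 95% binomial intervals as bars. Sertoli cells lie above myoid and stromal cells in both libraries, Leydig cells are lowest of the somatic types, and the 12 germ cells of the knockout-labelled library are at 0.

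Summed over all cells of a type, the 39 genes were at 5883 CPM in wild-type Sertoli cells, 4709 in germ cells, 3828 in myoid cells, 3311 in stroma, 1838 in macrophages and 761 in Leydig cells. In the knockout-labelled library the values were 6452 in Sertoli cells, 3758 in myoid cells, 3259 in stroma, 2095 in macrophages, 1671 in germ cells and 858 in Leydig cells. Leydig cells that met 1 gate alone were at 268 and 280 CPM, and macrophages that met 1 gate alone at 720 and 256 CPM, so that in cells of 1 gate of the knockout-labelled library macrophages lay below Leydig cells. The members differed in their order of types. Of the 39 genes, 22 were highest in Sertoli cells and 15 in germ cells in wild type, and 36 were highest in Sertoli cells in the other library. Among the 4 larger somatic groups the order Sertoli, myoid, stroma, Leydig was kept by 26 of 39 members in both libraries. The other 13 were *Ccnb2*, *Aurka*, *Nek2*, *Cdc20*, *Bub3*, *Cdca3*, *Kif2c*, *Kif20b*, *Hmmr*, *Prc1*, *Ect2*, *Anln* and *Mki67*. In all of these but *Anln* and *Mki67*, stroma stood above myoid cells in at least 1 library. The order of myoid cells and stroma also turned for the summed members in both libraries, at 2737 and 1492 CPM in the 54 and 25 myoid cells of 1 gate, and at 3360 and 3287 in myoid cells against 3502 and 3457 in stroma with gates on thinned counts.

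Against the other 5 types pooled, 10 members were at least 2-fold higher in Sertoli cells in both libraries: *Cdk1*, *Cks2*, *Plk1*, *Aurka*, *Nek2*, *Pbk*, *Ube2c*, *Tpx2*, *Kif23* and *Ect2*. Over all 19689 genes with at least 20 UMIs 10.1% passed this limit. In stroma 6 members (*Plk1*, *Aurka*, *Nek2*, *Pbk*, *Ube2c* and *Ect2*) were at most 0.5 times the level of the other 5 types pooled, where 18.3% of all genes were. All 6 are among the 10 members higher in Sertoli cells, which are part of that pool. Their myoid to stroma ratios ran from 0.925 to 1.15 in wild type. In Leydig cells 37 members were at most 0.5 times the pool, where 27.6% of all genes were. No member was at least 2-fold higher in both libraries in myoid cells, stroma, Leydig cells, macrophages or germ cells, where 5.61%, 12.2%, 8.40%, 7.45% and 17.0% of all genes were, and none was at most 0.5 times the other types in Sertoli cells, where 26.7% were. In macrophages 22 members were at most 0.5 times the other types, against 39.6% of all genes, in myoid cells only *Pbk* against 18.0%, and in germ cells only *Cdk1* against 17.8%. The Leydig count, the whole list apart from *Bub3* and *Kif2c*, lay farthest from its background.

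**Figure D3:**
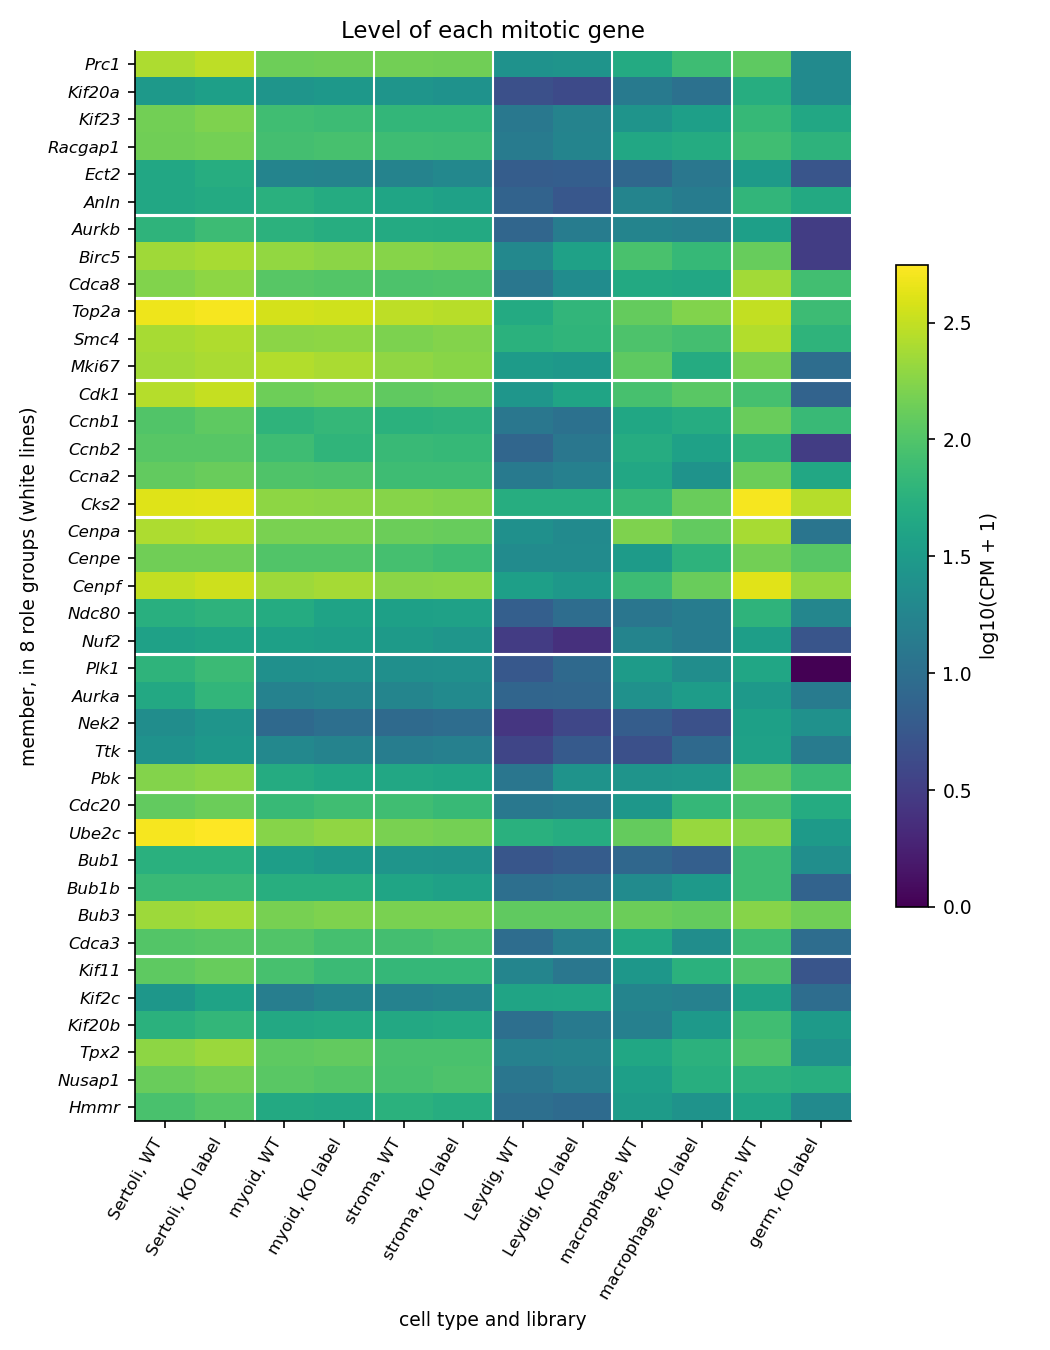
Level of each of the 39 genes (rows, in 8 role groups divided by white lines) in each cell type and library (columns, WT for wild type and KO label for the knockout-labelled library), as log10(CPM + 1). Sertoli columns are the brightest of the somatic types in most rows, Leydig columns are dark in most rows with *Bub3* at 118 and 119 CPM as their brightest, and the germ column of the knockout-labelled library is darker than that of wild type.

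The levels of single members are given as CPM from 3′ UMIs, which are not scaled to transcript length, with wild-type Sertoli cells before wild-type stroma. Of *Cdk1* and its partners, *Cks2*, a small subunit that docks on CDK1, was highest at 407 and 178 CPM, and *Ccnb1*, the main mitotic cyclin, lowest at 98.5 and 56.5. *Cdk1* stood at 275 and 117, a larger gap between the types than in *Ccnb2* (106 and 71.2), the second B-type cyclin. *Ccna2*, the cyclin of S phase and early mitosis, was at 122 and 77.6. All 5 were higher in Sertoli cells than in stroma in both libraries.

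Among the mitotic kinases *Pbk* was highest (173 and 43.6 CPM) and *Nek2*, which splits centrosomes, lowest (21.4 and 7.89). *Pbk* had the largest Sertoli to stroma ratio of all members, 3.97 in wild-type cells and 4.54 in the other library. *Plk1*, which acts from mitotic entry to exit, was at 59.8 and 22.2, *Aurka*, the centrosome and spindle kinase, at 44.5 and 16.9, and *Ttk*, the checkpoint kinase MPS1, at 24.3 and 13.5. Of these 5 kinases 4 were among the 10 members at least 2-fold higher in Sertoli cells than in the other 5 types pooled. *Ttk* was not. In wild type *Nek2* and *Ttk* were highest in germ cells (35.9 and 36.3 CPM), and the other kinases in Sertoli cells.

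In the group of the spindle checkpoint and APC/C, *Ube2c*, the APC/C's ubiquitin-conjugating enzyme, was highest in Sertoli cells at 516 CPM and stood at 155 in stroma, a ratio of 3.32. *Bub3*, a checkpoint protein, was highest in stroma at 156 and stood at 223 in Sertoli cells. *Bub3* also had the flattest profile over types, with 118 CPM in wild-type Leydig cells. *Bub1*, a checkpoint kinase, was lowest in both types (55.0 and 26.3). *Cdc20*, the activator of APC/C in mitosis, was at 121 and 79.0, *Bub1b*, the checkpoint protein BUBR1, at 71.3 and 40.3, and *Cdca3*, which promotes mitotic entry, at 101 and 82.4.

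Of the chromosomal passenger complex, which corrects faulty attachments, *Birc5* was highest (227 and 175 CPM) and its kinase *Aurkb* lowest (60.8 and 47.2), with *Cdca8* (borealin) at 168 and 93.4. Of the kinetochore genes *Cenpf* was highest (313 and 183) and *Nuf2* lowest (36.0 and 30.4), while *Cenpa*, the centromeric histone, was at 254 and 134, the motor *Cenpe* at 139 and 86.6, and *Ndc80*, the microtubule-binding partner of *Nuf2*, at 53.3 and 35.6. The 2 NDC80 complex genes thus stood closer between Sertoli cells and stroma than *Cenpa* did.

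Among spindle motors and microtubule-binding proteins *Tpx2*, which targets Aurora A to the spindle, was highest (188 and 91.0 CPM) and *Kif2c*, a microtubule depolymerase, lowest (27.5 and 15.5). The others were *Kif11*, the motor that separates the spindle poles (116 and 67.1), *Nusap1*, which bundles microtubules near chromosomes (130 and 87.3), *Hmmr*, which binds the spindle (90.8 and 55.9), and the kinesin *Kif20b* (55.8 and 44.2). *Kif2c* was highest in Leydig cells in both libraries, at 38.8 CPM (32.0 to 46.6) in wild type and 40.3 (33.2 to 48.4) in the other library, against 27.5 (25.8 to 29.3) and 38.3 (36.1 to 40.7) in Sertoli cells. The intervals of the types were apart in wild type and overlapped in the knockout-labelled library. In Leydig cells that met no second gate *Kif2c* stayed at 39.2 (30.8 to 49.2) and 42.8 (33.7 to 53.6), and a UMI of it was found in 46.8% and 54.5% of cells, against 21.7% and 28.1% of Sertoli cells at a similar depth (median 14648 and 17310.5 UMIs in Leydig and 13644 and 15776 in Sertoli cells). In the same Leydig cells *Ube2c* was at 3.18 and 1.13 CPM, *Top2a* at 7.42 and 9.01 and *Bub3* at 102 and 108. *Kif2c* and *Bub3* were thus present in these Leydig cells with little *Ube2c* or *Top2a*. Over all Leydig cells *Smc4* (56.5 and 61.1 CPM), *Cks2* (50.4 and 50.5), *Ube2c* (54.45 and 49.1) and *Top2a* (46.6 and 63.2) stood above *Kif2c*. The high level of *Kif2c* in Leydig cells was singled out after the values were seen.

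In the central spindle and cytokinesis group *Prc1*, which bundles the spindle midzone, was highest (253 and 145 CPM), *Kif20a* lowest in Sertoli cells (29.9, with 25.8 in stroma) and *Ect2*, which activates RhoA at the cleavage plane, lowest in stroma (16.0, with 43.9 in Sertoli cells). *Kif23* (144 and 64.5) and *Racgap1* (140 and 76.6), the partners of the centralspindlin complex, had similar levels to each other in both types. *Anln*, a scaffold of the contractile ring, had the smallest Sertoli to stroma ratio of wild type, 1.07 (43.3 and 40.6), and was higher in myoid cells (54.0, 49.3 to 59.1) than in Sertoli cells in wild type, while in the knockout-labelled library the intervals of the 2 types overlapped (47.9 and 46.8). Of the chromosome structure genes *Top2a*, the topoisomerase that untangles sister chromatids, was highest in both types (475 and 295). *Mki67*, the source of the Ki-67 antigen, was at 234 and 197, and stood at 272 (261 to 283) in wild-type myoid cells, above Sertoli cells. In the knockout-labelled library myoid and Sertoli cells were at 249 (237 to 261) and 247 (242 to 253), within counting error of each other. *Smc4*, a condensin subunit, was at 244 and 160.

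Within mitotic-high cells the members of Sertoli cells and stroma lay near the same level. The median member ratio was 0.919 in wild type and 0.917 in the knockout-labelled library, and the summed members 0.945 and 0.95 times the stroma level. No member was at least 2-fold higher, or at most 0.5 times, in both libraries, where 14.3% and 16.7% of all genes were. The members were used to choose these cells, so their level there is a description only. *Pbk* stood highest (ratios 1.99 and 2.08), followed by *Ube2c* (1.74 and 1.80), and *Anln* (0.560 and 0.592) and *Cdca3* (0.642 and 0.559) were among the lowest. Against myoid cells *Aurka* and *Pbk* were at least 2-fold higher in Sertoli cells in both libraries, where 15.7% of all genes were. Between myoid cells and stroma no member was past either limit, where 2.22% of all genes were higher and 4.05% lower. Mitotic-high germ cells of wild type had summed members at 0.489 of the stroma level and 0.5175 of the Sertoli level, with median member ratios of 0.552 and 0.5095. These cells lay nearer to the limit of 20 that chose them, with a median of 27 member UMIs against 58 and 61, so the counts are a description only. In them 17 members were at most 0.5 times the stroma level, where 23.5% of all genes were, and 19 at most 0.5 times the Sertoli level, where 20.9% were, with *Nusap1*, *Aurkb* and *Birc5* at 0.219, 0.248 and 0.253 of stroma.

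A late group (*Cdc20*, *Plk1*, *Ccnb1*, *Aurka*, *Cenpa* and *Ube2c*) and an early group (*Top2a*, *Mki67*, *Smc4*, *Ccna2* and *Kif11*) were summed in mitotic-high cells. Late over early UMIs were 0.961 and 0.978 in Sertoli cells, 0.523 and 0.591 in myoid cells, and 0.613 and 0.603 in stroma. The late group exceeded the early group in 46.2% and 46.1% of mitotic-high Sertoli cells, and in 29.5% and 27.2% of those in stroma. Wild-type mitotic-high germ cells had a ratio of 0.756. *Ube2c* made up 47.7% and 46.4% of the late sum in Sertoli cells and 34.2% and 33.4% in stroma. Without it, an alternative chosen after the data were seen, the ratios were 0.502 and 0.5245 in Sertoli cells, 0.335 and 0.373 in myoid cells, 0.403 and 0.402 in stroma and 0.560 in germ cells, so that germ cells then stood above Sertoli cells.

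Across single cells of a somatic type the members were correlated with each other, and less so across germ cells. In wild type the median correlation between 2 members, on log2(1 + UMIs) at 5000 UMIs a cell, was 0.501 over 2794 stromal cells, 0.440 over 718 myoid cells, 0.412 over 2190 Sertoli cells, 0.408 over 174 Leydig cells, whose 3 mitotic-high cells held 53.1% of the type's member UMIs, and 0.128 over 123 germ cells. The cells of a library share their depth and background, and the summed members correlated with the cell's depth before thinning at 0.42 in Sertoli cells and 0.412 in stroma. *Cenpf* followed the other members most closely in Sertoli cells (0.796) and *Birc5* in stroma (0.829), while *Ttk* (0.355) and *Bub3* (0.328) did so least. Among the genes outside the list with the highest correlation in Sertoli cells were *Tubb4b* (0.745), *H2az1* (0.716), *Stmn1* (0.696), *Ube2s*, *H2ax*, *Hmgb2*, *Knl1*, *Incenp* and *Arl6ip1* (0.586). In stroma they were *Hmgb2* (0.797), *H2az1* (0.766), *Stmn1* (0.754), *H2ax*, *Pclaf*, *Knl1*, *Spc24*, *Ckap2l*, *Spc25* and *Mxd3* (0.639). *H2az1*, *Stmn1*, *H2ax*, *Hmgb2* and *Knl1* are on both lists. In germ cells *Stmn1* came first (0.596), and the members correlated with the summed S phase genes at 0.602, against 0.497 in myoid cells, 0.457 in stroma and 0.300 in Sertoli cells.

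Other genes of the cell cycle, none of them members, were compared between mitotic-high and other cells of the same type. Of 41 further genes of G2 and M phase, 40 were at least 2-fold higher in mitotic-high cells in both Sertoli cells and stroma of both libraries, where 2.11% of 11073 genes outside the list were. The farthest by the mean of the 4 log2(CPM + 10) differences were *Knl1*, a kinetochore scaffold (24.3 and 22.2 times in Sertoli cells, 76.3 and 65.7 times in stroma, wild type first), *Aspm*, a spindle pole protein (24.7 and 47.4, then 82.8 and 108), and *Spc25* (12.3 and 14.2, then 34.0 and 38). The exception was *Pttg1*, the gene of securin, which APC/C destroys at anaphase. It had ratios of 0.937 and 1.10 in Sertoli cells and 0.849 and 0.831 in stroma, at levels of 70.3 to 102 CPM in all these groups. *Pttg1* was singled out after its values were seen. *Mybl2* and *Gtse1*, both past the limit, had the next smallest differences on the log2(CPM + 10) scale.

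Of 43 S phase genes 9 passed the same limit, as did 2.11% of the 11073 genes outside the list (among them *Tyms*, *Cenpu*, *Rad51ap1*, *Atad2*, *Rrm2*, *Blm*, *Brip1* and *E2f8*), with a median ratio of 1.18 and 1.30 in Sertoli cells and 2.49 and 3.14 in stroma. *Rrm2*, a subunit of ribonucleotide reductase, stood highest by the same measure (3.54 and 3.52, then 9.08 and 10.7), followed by *Rad51ap1* and *Tyms*. *Ung*, a uracil glycosylase, was lower in mitotic-high cells, at 0.338 and 0.354 in Sertoli cells and 0.507 and 0.559 in stroma, and did not pass the limit in stroma. Median S phase UMIs of 5000 were 13 in mitotic-high and 10 in other Sertoli cells of wild type, and 17 and 5 in stroma.

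Of 10 genes of CDK inhibitors and pocket proteins, 7 were measured and 2 were at least 2-fold higher, against the same 2.11% of genes outside the list. *Cdkn2c*, the CDK4 and CDK6 inhibitor p18, was at 9.79 CPM in other and 100.1 CPM in mitotic-high Sertoli cells of wild type (ratio 10.2, 8.81 to 11.9) and at 13.7 and 256 CPM in stroma (18.7, 16.6 to 21.2). *Cdkn2d*, the related inhibitor p19, had ratios of 2.15 and 2.50 in Sertoli cells and 7.22 and 8.65 in stroma. *Rbl1* came next, and *Cdkn1c*, *Rbl2* and *Rb1* were at the low end of this list. None of the 7 measured genes of G1 cyclins and their kinases passed in either direction over both types, where 0.0813% of genes outside the list were at most 0.5 times. *Ccne1*, *Ccne2* and *Cdk2* were the highest of them, and *Ccnd3* and *Cdk6* were low. *Ccnd2*, a D-type cyclin, came nearest on the low side. It was lower in mitotic-high stromal cells, at 0.320 (0.294 to 0.347) and 0.342 (0.312 to 0.375), and in myoid cells at 0.380 and 0.314, but at 0.826 (0.807 to 0.846) and 0.855 (0.835 to 0.875) in Sertoli cells, where its level in other cells was also higher (935 CPM in wild type, against 294 in stroma).

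**Figure D4:**
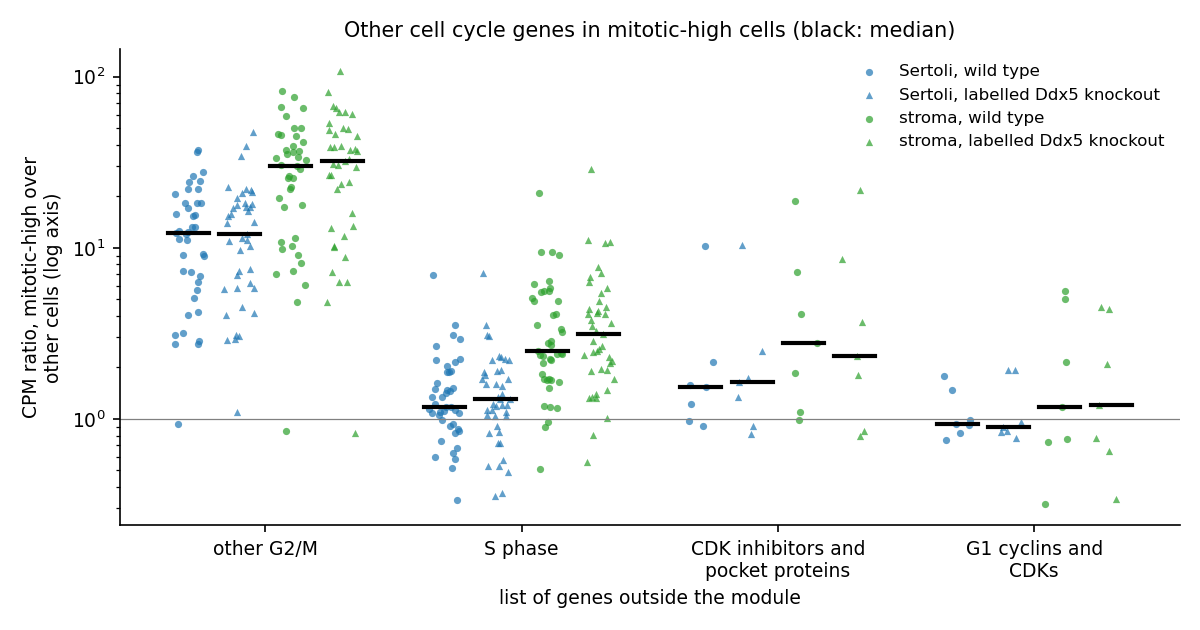
CPM ratio of mitotic-high over other cells of the type (log axis) for genes outside the 39, by list, with Sertoli cells in blue, stroma in green, wild type as circles and the knockout-labelled library as triangles, and medians as black lines. Other G2/M genes lie far above 1 except *Pttg1*, and S phase genes have medians of 1.18 and 1.30 in Sertoli cells and 2.49 and 3.14 in stroma.

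Log2 ratios between the libraries are of CPM + 10, the knockout-labelled library over wild type, and 2-fold limits are on that scale, which understates the ratios of low genes. No member differed past 2-fold in Sertoli, myoid or stromal cells. In Sertoli cells the median was 0.13. Of the 39 members 37 were higher, as were 51.3% of 15835 genes. None was past 2-fold, where 0.00632% of these genes were more than 2-fold higher and 0.0189% lower. The median of all genes was 0.00. For 35 members the interval of the ratio lay above 1, as it did for 14.3% of all genes. *Aurka* was highest, at 44.5 CPM in wild-type cells and 62.7 in the other library (log2 ratio 0.42), followed by *Kif2c* (27.5 and 38.3, 0.37) and *Aurkb* (60.8 and 75.2, 0.27). *Bub1* (55.0 and 54.5) and *Bub1b* (71.3 and 71.2) were the members not higher. The share of mitotic-high Sertoli cells was 1.12 times that of wild type (1.005 to 1.248). Other values differed between the libraries in these cells too: the stroma markers summed to 443 and 644 CPM, and red blood cell genes to 149 and 323 CPM. Of the 6 Sertoli markers *Rhox8* (976 and 705 CPM), *Cst12* (1949 and 1662), *Aard* (1733 and 1609) and *Amh* (1113 and 1044) were lower in the knockout-labelled library, and *Sox9* (269 and 274) and *Dhh* (211 and 222) higher. Doublets were 205 of 2208 and 209 of 1620 Sertoli cells. The part of these values in the difference was not tested. With 1 library per genotype, the usual spread between animals is not known.

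In myoid cells the median log2 ratio was -0.02 and in stroma -0.02, with 17 of 39 members higher in each. Of all genes 50.3% were higher in myoid cells and 50.4% in stroma. No member was past 2-fold. Past 2-fold were 0.0450% of all genes higher and 0.0525% lower in myoid cells, and 0.0374% higher and 0.0312% lower in stroma. The shares of mitotic-high cells had ratios of 0.832 (0.646 to 1.07) and 0.945 (0.823 to 1.08). In the 54 and 25 myoid cells of 1 gate the median log2 ratio was -0.85, over 29 members with at least 20 UMIs, and the ratio of shares 0.424. In Leydig cells 37 members had at least 20 UMIs, with a median of 0.08 and none past 2-fold on that scale, where 0.107% of genes were higher and 0.0627% lower. As plain CPM ratios *Pbk* (10.9 and 24.7 CPM, ratio 2.27, 1.48 to 3.57) and *Birc5* (18.0 and 36.4 CPM, ratio 2.02, 1.43 to 2.87) were past 2-fold. The share of all genes past 2-fold as plain ratios was not counted. For 6 of the 37 members, these 2 among them, the interval lay above 1, as it did for 5.43% of all genes. Of the member UMIs in Leydig cells 53.1% and 57.4% came from the 3 and 5 mitotic-high cells, which all met a second gate. In macrophages 29 had, with a median of 0.31. The direction turned in the 22 and 13 macrophages of 1 gate, where the median was -0.96 over the 2 members with at least 20 UMIs and the summed members had a ratio of 0.356 (0.2645 to 0.472), and with gates on thinned counts (-2.23). Over all 39 members, with no minimum of UMIs, the median in all macrophages was 0.10. In these cells *Cdc20* was higher past 2-fold (27.3 and 66.7 CPM, from 15 and 35 UMIs) and *Mki67* lower (115 and 47.6 CPM, from 63 and 25 UMIs), where 1.70% and 1.39% of genes were. These macrophage values rest on 4 and 3 mitotic-high cells.

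In germ cells all 39 members were lower in the knockout-labelled library, as were 70.7% of all genes. The median log2 ratio was -1.39, against -0.42 for all 12394 genes with at least 20 UMIs, and 26 members were lower past 2-fold, where 23.5% of all genes were. None was higher past 2-fold, where 4.83% of all genes were. The summed members were at 0.355 times the wild-type level (0.330 to 0.381). The member with the lowest ratio on this scale was *Cenpa*, with 1050 UMIs (243 CPM) in 125 wild-type cells and 5 UMIs (10.8 CPM) in 12 cells of the other library. *Birc5* had 555 and 1 UMIs, *Mki67* 675 and 4, *Kif11* 411 and 2, *Cdk1* 372 and 3, and *Ccnb2* 262 and 1. *Plk1* had 178 UMIs in wild type and none in the other library, at least 6.36-fold lower against 3 UMIs over the group, with an upper limit of the ratio of 0.195 by the exact interval. At the other end were *Nusap1* (57.4 and 51.8 CPM, ratio 0.903, 0.568 to 1.38), *Bub3* (0.802, 0.613 to 1.03), *Anln* (0.723, 0.440 to 1.13), *Racgap1* (0.728, 0.473 to 1.08) and *Nek2* (0.662, 0.324 to 1.22), the 5 members whose interval reached 1. The interval lay below 1 for the other 34, and for 35.2% of all genes. The S phase genes were also lower, with a median log2 ratio of -1.44 and 3 of 43 higher, and the other G2/M genes had a median of -0.84 with 4 of 41 higher. Of all genes 29.3% were higher.

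**Figure D5:**
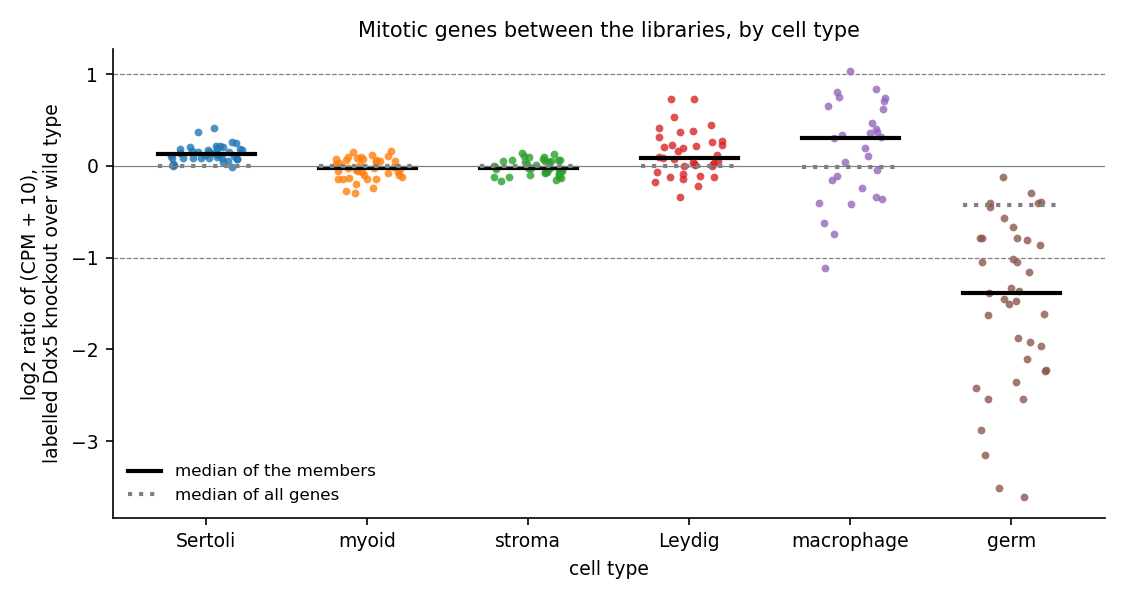
Log2 ratio of (CPM + 10) of each member, knockout-labelled library over wild type, by cell type, with members as points, their median as a black line, the median of all genes as a dotted grey line and 2-fold as dashed lines. Members lie near 0 in Sertoli, myoid, stromal and Leydig cells and spread more widely in macrophages. In germ cells all 39 lie below 0, as do 70.7% of all genes.

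Other values also differed between the libraries in germ cells. Among them were the number of cells (125 and 12), the Sertoli markers given above, and the median mitochondrial share (5.41% and 2.78%). The stroma markers summed to 260.0 and 414 CPM, the macrophage markers to 95.6 and 6.48 CPM with 4 of 6 at 0 in the 12 cells, and the endothelial markers to 34.9 and 75.6 CPM. The 6 germ cell markers summed to 2317 and 1802 CPM. *Dazl* (1216 and 665 CPM), *Ddx4* (389 and 287), *Stk31* (344 and 242) and *Pou5f1* (23.6 and 19.4) were lower in the knockout-labelled library, and *Mael* (344 and 566) and *Dppa3* (1.39 and 23.7, from 6 and 11 UMIs) higher. Median depths were close, 34394 and 34528 UMIs. Germ cells that met no second gate had summed members of 4757 CPM (4666 to 4848) in wild type and 1835 (1684 to 1996) in the other library, and a median log2 ratio of -1.35 against -0.58 for all genes. Among the 52 and 12 germ cells with at most 5% mitochondrial UMIs, 32.0% of wild-type cells were mitotic-high, their summed level was 4128 CPM, and the median log2 ratio of the members was -1.04 against -0.56 for all genes. The part of the other values in the difference was not tested.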

How the data were processed

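Single-cell libraries of dissociated whole testes at postnatal day 2 were made with 10x 3′ chemistry. Per the labels, the authors used Cell Ranger 3.1.0, Seurat 3.1.5 and GRCm38. By the study's methods, the reference also held GFP and CRE sequences. The deposited table holds raw UMI counts per gene and barcode, before any filter on cells, with 6763 barcodes (84263163 UMIs) of suffix 3 and 5423 (67558106 UMIs) of suffix 4. No file names the suffixes. Suffix 4 holds fewer barcodes than the wild-type cells the study states, so suffix 3 was taken as wild type, and the study's filter then left 1 wild-type cell more than it states.

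Python 3.11.15, scipy 1.17.1 and scanpy 1.11.5 (Scrublet, run per library) were used. Barcodes under 2000 genes or over 10% mitochondrial UMIs were dropped, and doublets (284 and 296 calls) were kept. Gates were *Amh* at least 3, *Cyp11a1*, *Cyp17a1* and *Hsd3b1* together at least 20, *Acta2* at least 5 with *Myh11* at least 2, *Pdgfra* at least 1 with *Amh* at most 2, *C1qa*, *C1qb* and *C1qc* together at least 5, and UMIs of at least 3 of 4 germ genes. Each cell took the first gate met in the order germ, macrophage, Leydig, Sertoli, myoid, stroma; 214 and 162 cells met none and 820 and 551 met 2 or more. Thinning to 5000 UMIs left out 97 and 68 shallower cells.

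UMIs were summed per type and library and scaled to CPM. Shares have Clopper-Pearson intervals, sums Poisson intervals and ratios conditional binomial intervals, at 95%. Genes entered log2 ratios with at least 20 UMIs over both libraries and a pseudocount of 10 CPM. No genotype test was run, since cells of 1 library do not replicate it. Scripts were tested on simulated data. The 39 genes, the lists and the rule for named genes (highest and lowest member of each role group in Sertoli cells and stroma, members past 2-fold between libraries, members with another order of types, and the farthest genes of each list) were chosen with earlier results of these data known. The alternatives are another limit, depth, seed, gate rule, doublet, gene or mitochondrial filter, CPM without ribosomal protein genes, pseudocount, UMI filter and fold. Some genes that meet the rule are not reported here.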

Additional observations from a re-analysis of the deposited data

Results flagged for a closer look

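Set against wild type, the summed members of the knockout-labelled library lay above it in some types and below it in others. The ratio was 1.10 in Sertoli cells, 1.13 in Leydig cells and 1.14 in macrophages, and 0.982 in myoid cells, 0.984 in stroma and 0.355 in germ cells. In cells of 1 gate the ratio was 0.356 (0.2645 to 0.472) in macrophages, which turned its direction, 1.04 (0.9205 to 1.18) in Leydig cells and 0.545 (0.486 to 0.611) in myoid cells. Over all cells each interval for counting error lay on 1 side of 1, though the ratios in myoid cells and stroma were close to 1. These intervals count UMIs and leave out the spread between cells. Ratios of mitotic-high shares had intervals that held 1 in myoid cells, stroma, Leydig cells and macrophages. In Sertoli and germ cells they did not. Each type has 1 library per genotype, and the difference between types was not tested.

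Cells that met no marker gate, which enter no comparison above, also held mitotic-high cells, 33 of 204 (16.2%) in wild type and 30 of 154 (19.5%) in the knockout-labelled library.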

How the results depend on the processing

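No paired analysis was possible because the labels number 8 samples in each genotype but the barcodes carry no such number. No sample was left out in turn for the same reason. Another seed, thinning to 3000 UMIs and unthinned shares moved no value beyond its counting interval. Among the directions that turned under settings below were that between libraries in macrophages, the order of myoid cells and stroma, that of macrophages and Leydig cells in the knockout-labelled library (1 gate, thinned gates and at most 5% mitochondrial UMIs), and that of wild-type germ cells, whose share lay above the somatic types at 20 UMIs and below Sertoli, myoid and stromal cells at 40. The causes of the changes below were not tested, and values are given with wild type first where both libraries are named.

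The share of mitotic-high cells moved with the limit. With at least 10 member UMIs it was 40.5% and 44.1% in Sertoli cells, 29.0% in myoid cells of wild type, 19.5% and 18.3% in stroma and 75.6% and 33.3% in germ cells. With at least 40 it was 26.2% and 28.7% in Sertoli cells, 15.2% and 14.4% in myoid cells, 11.6% and 11.5% in stroma and 8.13% in wild-type germ cells. Other settings moved it to 18.9% and 8.0% in myoid cells, 0% and 0% in Leydig cells and 0% in macrophages of the knockout-labelled library (cells of 1 gate), 20.8% and 16.7% in myoid cells and 0% in those macrophages (gates on thinned counts), 19.96% and 19.3% in stroma (at least 3000 genes), 5.0% and 14.3% in Leydig and 32.0% in wild-type germ cells (at most 5% mitochondrial UMIs), and 0.826% in Leydig cells of the knockout-labelled library (no doublets). The ratio of shares between libraries fell to 0.424 in myoid cells and 0 in macrophages with cells of 1 gate, and to 0 in macrophages with thinned gates.

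The summed level in CPM, in cells of 1 gate, was 6517 in Sertoli cells of the knockout-labelled library, 2737 and 1492 in myoid cells, 268 and 280.0 in Leydig cells, 720 and 256 in macrophages and 1835 in germ cells of the knockout-labelled library. With each cell in every gate it met it was 5836 in wild-type Sertoli cells, 3996 and 3698 in myoid cells and 3387 and 3294 in stroma. Gates on thinned counts gave 5780 and 6307 in Sertoli cells, 3360 and 3287 in myoid cells, 3502 and 3457 in stroma, 629 and 707 in Leydig cells, 314 in macrophages of the knockout-labelled library and 4618 in wild-type germ cells. Without doublets it was 6079 and 6695 in Sertoli cells, 388 and 461 in Leydig cells, 3851 in myoid cells and 3178 in stroma of the knockout-labelled library, and 1451 in macrophages and 4883 in germ cells of wild type. At least 3000 genes gave 5926 in Sertoli cells and 1956 in macrophages of wild type, 4062 and 3856 in myoid cells and 3807 and 3782 in stroma. At most 5% mitochondrial UMIs gave 1810 and 2169 in Leydig cells and 4128 in wild-type germ cells. Outside ribosomal protein genes it was 7272 and 8029 in Sertoli cells, 5019 and 4945 in myoid cells, 4229 and 4174 in stroma, 896 and 1018 in Leydig cells, 2155 and 2436 in macrophages and 5638 and 2540 in germ cells.

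The median log2 ratio between libraries was 0.15 in Sertoli cells with 1 gate, outside ribosomal protein genes and with a pseudocount of 1, and 0.10 with 50. In myoid cells it was -0.85 with 1 gate and -0.0892 with every gate met, in stroma -0.0407 with every gate met and -0.0532 without doublets, and in Leydig cells 0.20 with at most 5% mitochondrial UMIs. In macrophages it was -0.96 with 1 gate, -2.23 with thinned gates, 0.17 with at least 3000 genes, 0.16 with a pseudocount of 50 and 0.10 over all members. In germ cells it was -1.04 with at most 5% mitochondrial UMIs, -1.19 outside ribosomal protein genes, -1.74 with a pseudocount of 1 and -0.71 with 50.

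Counts of members past the limit against other types are given with the share of all genes past the same limit in the same cells. A 1.5-fold limit gave 26 higher in Sertoli cells (16.3% of genes) and 1 in Leydig cells (13.3%), and 9 lower in myoid cells (25.1%), 20 in stroma (26.1%) and 7 in germ cells (24.6%). A 3-fold limit gave 2 higher in Sertoli cells (6.35%), and 0 lower in myoid cells (13.3%), 1 in stroma (13.2%), 5 in macrophages (32.1%) and 0 in germ cells (11.4%). With cells of 1 gate 15 were lower in myoid cells (32.4%), 10 in stroma (18.5%), 36 in macrophages (51.5%) and 5 in germ cells (23.4%), and 1 was higher in germ cells (15.9%). In myoid cells 0 were lower with every gate met (15.4%), 3 with thinned gates (18.9%) and 2 with at most 5% mitochondrial UMIs (15.8%). In stroma 3 were lower with at least 3000 genes (18.0%), and in germ cells 4 with at most 5% mitochondrial UMIs (17.7%). In Sertoli cells 7 were higher with at least 3000 genes (9.75%), and in Leydig cells 27 were lower with at most 5% mitochondrial UMIs (23.5%).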
